A study of Mus musculus with 17 samples.

Results

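Collagens are the structural proteins of the extracellular matrix, and each is a trimer of chains, every chain type having its own gene. The members described here are all genes on the array whose symbol has the form of a collagen chain (Col, a number, a, a number), which gave 44 of 21452 symbols and 87 of 41174 non-control probes. They were split by family number alone into 9 genes of fibrillar chains (Col1, Col2, Col3, Col5, and Col11), 8 genes of basement membrane chains (Col4, Col15, and Col18), and 27 other genes. Fibrillar below means only the families named here, and the other genes are every remaining family, of whatever kind. In liver, stellate cells and portal fibroblasts are known as the main source of the fibrillar chains, which are secreted as procollagens, trimmed, cross-linked, and laid down as scar. The network-forming chains of the basement membrane lie around vessels and bile ducts. The other genes include chains that coat fibrils, form beaded filaments (Col6), or span the cell membrane (Col13a1).

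Livers came from 17 male mice, 1 array per mouse, and each mouse was on its diet for 3 months before a single gavage. The 4 chow mice were fed chow with maltose gavage, the 4 1B mice chow with an ethanol gavage of 5 g/kg (1 binge), the 4 HFD mice a high-fat diet with maltose, and the 5 HFD+1B mice the high-fat diet with the same ethanol dose. The sample labels give the strain as C57BL/6N and the methods as C57BL/6J, and no group carried an engineered allele. Liver cDNA was labeled with Cy5 and hybridized against 1 Cy3-labeled mixed mouse reference RNA, without a dye swap, so that every level below is a log2 ratio of liver to reference and is comparable between mice but not between probes.

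The albumin probe (Alb), which marks hepatocytes, had a median Cy5 intensity of 131000 to 145000 in the 4 groups, against an array median over all probes of 63 to 158. The share of probes well above background ran from 73.9% to 86.0%. The HFD arrays stood apart in a way that touches the results below. Ribosomal RNA probes had a mean log2 ratio of -3.55 to -1.88 on the 4 HFD arrays and of -0.96 to 1.16 on the 13 others. Over 1278 genes outside the collagens, probes whose sequence has an open reading frame were also compared with probes of the same gene that have a stop codon in all 3 sense frames, and the median log2 difference between them was -0.026, -0.043, -0.19, and -0.11 on the 4 HFD arrays and -0.061 to 0.069 on the others, so that 2 HFD arrays lay below that range and 2 within it.

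Of the 87 collagen probes, 72 probes of 41 genes were bright enough to be tested, which leaves 15 probes untested. Col17a1 and Col28a1 were well above background on 0 arrays and Col26a1 on 3. Unless a probe is named, the value of a gene is that of its brightest tested probe, and 35 of the 41 genes were well above background on all 17 arrays at that probe. A gene was called at a Benjamini-Hochberg adjusted p of 0.05 or less in limma, adjusted over all 34664 probes tested.

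The array reads each chain through 60-base probes, and the sequences of those on which the results turn follow. Probes of Col1a1, which encodes the alpha 1 chain of type I collagen, and of Col3a1 are shown because probes of 1 gene gave unlike values in HFD.
Col1a1, A_51_P377094: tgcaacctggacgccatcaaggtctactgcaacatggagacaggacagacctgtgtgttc
Col1a1, A_52_P658611: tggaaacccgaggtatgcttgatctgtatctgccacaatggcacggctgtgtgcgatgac
Col3a1, A_52_P684242: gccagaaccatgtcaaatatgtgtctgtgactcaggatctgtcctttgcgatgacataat
A collagen triple helix is built of repeats of 3 residues that begin with glycine, and 3 of the 87 probes contain at least 5 such glycine codons in a row. A probe of Col5a1 and one of Col5a3 are among them, with 6 and 7 glycine codons, which are in capitals.
Col5a1, A_52_P237371: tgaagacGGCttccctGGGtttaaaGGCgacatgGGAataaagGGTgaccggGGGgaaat
Col5a3, A_52_P503796: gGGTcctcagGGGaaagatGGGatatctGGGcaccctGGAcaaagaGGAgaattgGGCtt
The pair of Col2a1 probes is shown because they overlap by 40 bases, in capitals, and still received opposite calls in HFD.
Col2a1, A_52_P216436: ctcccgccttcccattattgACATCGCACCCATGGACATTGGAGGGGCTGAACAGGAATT
Col2a1, A_51_P317141: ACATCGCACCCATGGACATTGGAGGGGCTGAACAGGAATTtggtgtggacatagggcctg
No other pair of probes of 1 chain shared 15 or more bases end to end, and 13 of the 87 probes had a stop codon in all 3 sense frames.

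Compared with chow, HFD feeding alone was accompanied by higher levels of Col1a1, Col3a1, Col4a1, Col5a1, Col6a1, and Col6a3 at their brightest probes. Col1a1, Col3a1, Col5a1, and Col6a3 each also had a tested probe that was not called in HFD (0.22, -0.045, 0.018, and 0.011). In HFD, 6 of 41 collagen genes were higher (14.6%, against 4.60% of all 19358 genes tested) and 2 were lower (4.88%, against 6.28%). These were 3 of 9 fibrillar genes, 1 of 8 basement membrane genes, and 2 of 24 other genes. The lower genes were Col2a1 and Col4a6. With median centring in place of loess the counts were 6 and 4 (against 1.49% and 8.88% of all genes under that scaling), and with Cy5 alone, quantile normalized, they were 3 and 1 (1.03% and 2.90%). With the Tukey test and Benjamini-Hochberg adjustment they were 1 (Col4a1) and 0.

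Col1a1 had the largest difference of the 41 genes. Its log2 ratio was -2.62 to -1.99 in chow (-2.03, -2.56, -1.99, and -2.62), and was -0.31, -0.20, 0.79, and 0.017 in the 4 HFD mice. All HFD mice lay above all chow mice. The log2 difference was 2.38 (SE 0.43), a 5.19-fold higher level, with an adjusted p of 0.00278.

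Col3a1, the chain of type III collagen, had log2 ratios of 0.0023, -0.36, -0.45, and -0.50 in chow and of 1.1, 0.81, 0.68, and 0.43 in HFD. The groups did not overlap, and the log2 difference was 1.08 (SE 0.22, adjusted p of 0.00551). Col5a1, a chain that is incorporated in type I fibrils, differed by 0.92 (SE 0.24, adjusted p of 0.0237). Col1a2, the partner of Col1a1 in type I collagen, was above chow in all HFD mice by 0.88 (SE 0.37), but was not called (adjusted p of 0.137). Col5a2 differed by 0.16 (adjusted p of 0.423).

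Among basement membrane chains, Col4a1 had log2 ratios of -0.67, -0.63, -0.68, and -0.75 in chow and of -0.15, -0.0093, 0.30, and 0.28 in HFD. Its difference of 0.79 (SE 0.12, adjusted p of 0.000766) was more than 3 times the SD among HFD mice, 0.23. Col4a2, which joins Col4a1 in the same trimer, differed by 0.27 (SE 0.13, adjusted p of 0.202) at its brightest probe and was not called there. At its second probe (A_52_P496142) it was called higher in HFD, by 0.78.

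Type VI collagen forms beaded filaments, and 6 genes of its chains were tested. The differences from chow in HFD were 1.13 for Col6a1 (SE 0.32, adjusted p of 0.0342), 0.86 for Col6a2 (SE 0.27, adjusted p of 0.0506, not called), and 1.26 for Col6a3 (SE 0.31, adjusted p of 0.0169). All 4 HFD mice lay above all chow mice for each of these 3 genes. The differences of Col6a4 (-0.38), Col6a5 (0.16), and Col6a6 (-0.20) were not called. The brightest Col6a3 probe passed background on 3 of the 4 arrays of chow mice, and when only probes above background on all 17 arrays were used, Col6a3 was read by another probe (A_52_P573586) with a difference of 0.011.

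Col2a1, best known from cartilage, had log2 ratios of 0.31, 0.11, 0.25, and 0.15 in chow and of -0.57, -0.46, and -0.61 in the 3 HFD mice with a value, since the spot of HFD mouse 3 was marked as an outlier and left out. Its difference was -0.75 (SE 0.22, adjusted p of 0.038). Col4a6, a basement membrane chain, differed by -0.55 (SE 0.17, adjusted p of 0.0449). The second Col4a6 probe (A_51_P109326) had the opposite sign, at 0.27, and was not called.

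The HFD calls of Col1a1, Col3a1, and Col4a1 held in each of the 17 fits that left out 1 mouse. That of Col6a3 was lost without chow mouse 4 (1.20) or HFD mouse 3 (1.18), and that of Col5a1 without chow mouse 1 or 4 or HFD mouse 3 or 4 (0.84 to 0.93). That of Col6a1 was lost without chow mouse 1, 2, or 4 or HFD mouse 1, 3, or 4 (1.03 to 1.15), and that of Col2a1 without any 1 of the chow or HFD mice (-0.80 to -0.72). Col4a6 lost its call in 11 of these fits, including those without any 1 chow mouse and those without HFD mouse 1, 3, or 4, 1B mouse 2, 3, or 4, or HFD+1B mouse 2 (-0.61 to -0.48). The count of higher genes was 3 without chow mouse 4 or HFD mouse 3.

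**Figure D1:**
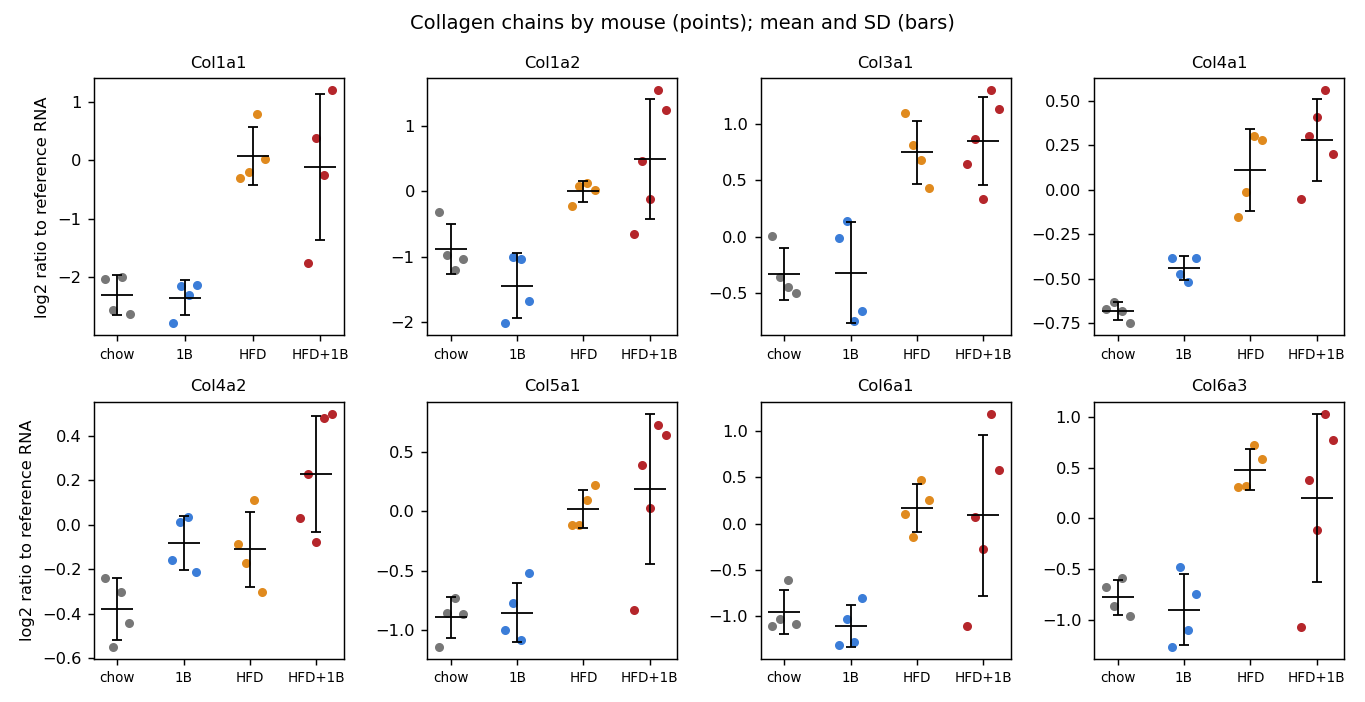
Log2 ratio of liver to reference RNA (y axis) for 8 collagen chains in the 4 groups (x axis), where each point is a mouse and the bars are the mean and SD. The 4 HFD mice lie above the chow mice for Col1a1, Col1a2, Col3a1, Col4a1, Col5a1, Col6a1, and Col6a3, whereas HFD+1B mice are spread over a wider range, from -1.76 to 1.20 for Col1a1.

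In HFD+1B, the same classes of chains were higher than in chow, and more genes were called. In all, 12 of 41 genes were higher (29.3%, against 9.01% of all genes tested) and 2 were lower (4.88%, against 7.28%). The higher genes were Col1a1, Col1a2, Col3a1, and Col5a1 (4 of 9 fibrillar genes), Col4a1 and Col4a2 (2 of 8 basement membrane genes), and Col6a1, Col6a2, Col6a3, Col9a2, Col13a1, and Col22a1 (6 of 24 other genes tested). The lower genes were Col5a3 and Col27a1. The comparisons of HFD and HFD+1B with chow share their 4 chow arrays.

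Col1a1 was -1.76, 0.38, -0.25, and 1.20 in the 4 HFD+1B mice with a value, the spot of mouse 4 having been left out as an outlier. All were above the chow mice, and the difference was 2.19 (SE 0.43), a 4.58-fold higher level, with an adjusted p of 0.00202. The SD of Col1a1 was 1.25 in HFD+1B and 0.34 in chow. Col3a1 was 1.18 higher (SE 0.21, adjusted p of 0.000797), with log2 ratios of 0.64, 0.87, 0.33, 1.30, and 1.13, all above chow.

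Col1a2 was called in HFD+1B, with log2 ratios of -0.32, -0.97, -1.20, and -1.03 in chow and of -0.65, 0.47, -0.12, 1.55, and 1.25 in HFD+1B. The groups overlapped through HFD+1B mouse 1, and the difference was 1.38 (SE 0.35, adjusted p of 0.0111). Col5a1 differed by 1.09 (SE 0.23, adjusted p of 0.00328).

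The type VI chains also overlapped with chow through mouse 1. Col6a1 was -1.11, -1.04, -0.61, and -1.09 in chow and -1.11, 0.066, -0.28, 1.19, and 0.58 in HFD+1B, a difference of 1.05 (SE 0.31, adjusted p of 0.0267). The difference was 0.81 for Col6a2 (adjusted p of 0.0411) and 0.97 for Col6a3 (adjusted p of 0.0336). HFD+1B mouse 1 had the lowest value of its group for Col1a1, Col1a2, Col5a1, Col6a1, Col6a2, and Col6a3. Without this mouse, the difference from chow was 2.75 for Col1a1, 1.67 for Col1a2, 1.34 for Col5a1, and 1.35 for Col6a1.

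The Col4a1 and Col4a2 genes lie head to head, and their annotated start sites are 21 bases apart on opposite strands of mouse chromosome 8 (GRCm38.p6, RefSeq). Both were higher in all 5 HFD+1B mice than in any chow mouse. Col4a1 was -0.049, 0.30, 0.41, 0.56, and 0.20 in HFD+1B, a difference from chow of 0.97 (SE 0.12, adjusted p of 1.86e-05), and Col4a2 was 0.61 higher (SE 0.12, adjusted p of 0.00226). The second probe of each gene gave larger differences, 2.35 for Col4a1 (adjusted p of 5.85e-07) and 1.16 for Col4a2 (adjusted p of 0.00014).

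Among the other chains, Col13a1, a transmembrane collagen, was -0.80, -0.59, -0.69, and -0.72 in chow, and -0.21, -0.046, 0.076, 0.62, and -0.21 in HFD+1B. It was 0.75 higher (SE 0.14, adjusted p of 0.00125), without overlap. Col9a2, a chain of fibril-associated type IX collagen, was 0.55 higher (SE 0.14, adjusted p of 0.0104), and Col22a1 was 0.65 higher (SE 0.21, adjusted p of 0.0457).

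Col27a1 was the gene with the largest negative difference. Its log2 ratio was 0.072, 0.25, 0.59, and 0.54 in chow and -0.39, -0.82, -0.64, -0.97, and -0.64 in HFD+1B. All HFD+1B mice were below all other mice, and the difference from chow was -1.06 (SE 0.15, adjusted p of 9.28e-05). Of its other probes, A_52_P129388 gave -0.96 (adjusted p of 0.00959) and A_52_P628870 gave -0.095 (adjusted p of 0.654). Col5a3 differed by -0.54 (SE 0.12, adjusted p of 0.00587), in contrast to the difference of 1.09 for Col5a1.

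Of these 14 calls, 10 held in every fit that left out 1 mouse, and those of Col6a1, Col6a2, Col6a3, and Col22a1 did not. Col6a1 was not called without chow mouse 1, 2, or 4 or HFD+1B mouse 4 or 5 (0.78 to 1.02), and Col6a3 without any 1 chow mouse or HFD+1B mouse 2, 4, or 5 (0.77 to 1.03). Col6a2 was not called in 10 fits, without any 1 chow mouse, 1B mouse 3, HFD mouse 2 or 4, or HFD+1B mouse 2, 4, or 5 (0.56 to 0.84). Col22a1 was not called in 9 fits, without chow mouse 3 or 4, 1B mouse 4, HFD mouse 1, 2, or 4, or HFD+1B mouse 1, 2, or 4 (0.52 to 0.69). With Cy5 alone, 4 genes in place of 12 were higher and 2 were lower (against 3.06% and 2.89% of all genes). With the adjusted Tukey test 4 were higher (Col3a1, Col4a1, Col4a2, and Col13a1) and 1 was lower (3.88% and 3.18%). With the replicate block the calls of Col6a2 (0.70) and Col6a3 (0.83) were lost.

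**Figure D2:**
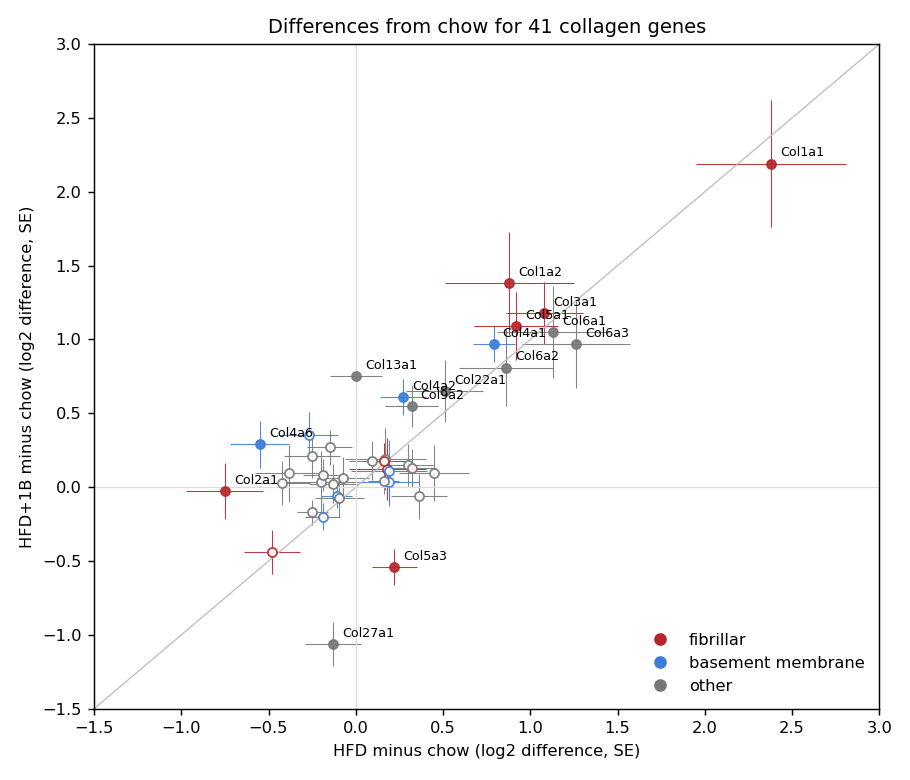
Log2 difference of HFD from chow (x axis) and of HFD+1B from chow (y axis) for the 41 collagen genes tested, with SE bars; filled and named points were called in at least 1 of the comparisons, and the diagonal marks equal differences. Col1a1, Col3a1, Col5a1, Col4a1, Col6a1, Col6a2, and Col6a3 lie near the diagonal, Col13a1 (0.0016 and 0.75) and Col27a1 (-0.13 and -1.06) far from it, and both axes share the chow arrays.

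The comparison of HFD+1B with HFD asks what the binge added on the high-fat diet. At their brightest probes, the fibrillar and type VI chains called against chow in both groups were not called between them. Col1a1 differed by -0.18 (SE 0.43, adjusted p of 0.821), Col3a1 by 0.10 (SE 0.21, adjusted p of 0.792), Col5a1 by 0.17 (SE 0.23), Col6a1 by -0.080 (SE 0.31), and Col6a3 by -0.29 (adjusted p of 0.555). The values of these genes overlapped between the groups. The signs for Col1a1 and Col3a1 changed under other scalings and without single mice. Col4a1 was called on its dimmer probe (A_51_P124254), with log2 ratios of -0.39, -0.40, 0.34, and 0.17 in HFD, rising to 0.28, 0.65, 1.29, 0.98, and 0.90 with the binge (0.89, SE 0.19, adjusted p of 0.00422), but its brightest probe gave 0.18 (adjusted p of 0.317).

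In all, 7 genes were higher in HFD+1B than in HFD (17.1%, against 10.8% of all genes) and 2 were lower (4.88%, against 8.43%), and neither share was far from that of all genes tested. With median centring 12 were higher and 2 lower (against 18.9% and 2.35% of all genes, with the median of all probes at 0.090), and with Cy5 alone 2 were higher and 2 lower (4.07% and 2.15%). The 7 higher genes were Col2a1, Col4a4, Col4a6, Col10a1, Col13a1, Col20a1, and Col24a1, of which only Col13a1 was also called against chow in HFD+1B. Col13a1 was -0.65, -0.59, -0.98, and -0.56 in HFD, as low as in chow, and the difference was 0.74 (SE 0.14, adjusted p of 0.00167). Its second probe gave 0.60 (SE 0.12, adjusted p of 0.00203).

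The 6 others had lower mean log2 ratios in HFD than in chow. Col4a6 was -0.83, -0.30, -0.77, and -0.45 in HFD, against 0.40, 0.37, -0.15, 0.69, and -0.043 with the binge (difference 0.84, SE 0.16, adjusted p of 0.00177). Its second probe (A_51_P109326) gave -0.16 and was not called, so the Col4a6 values here are those of 1 probe. The difference was 0.73 for Col2a1 (adjusted p of 0.0232), 0.62 for Col4a4 (adjusted p of 0.0126), 0.46 for Col10a1 (adjusted p of 0.0396), 0.45 for Col24a1 (adjusted p of 0.0439), and 0.42 for Col20a1 (adjusted p of 0.0258). The values of Col4a4 and Col4a6 did not overlap between the groups, whereas those of Col2a1, Col10a1, Col20a1, and Col24a1 did. These genes were low on the arrays on which ribosomal RNA was also low, and the part of the array in these differences was not tested.

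The 2 lower genes were Col27a1 and Col5a3. Col27a1 was 0.34, 0.23, 0.19, and 0.16 in HFD, and was lower in every HFD+1B mouse (difference -0.92, SE 0.15, adjusted p of 0.000514). Of its 3 tested probes only this 1 was called here, and the differences ran from -0.92 to -0.0055. Col5a3 was 0.29, 0.31, 0.34, and 0.57 in HFD, against -0.42, -0.54, -0.28, -0.53, and -0.15 with the binge (difference -0.76, SE 0.12, adjusted p of 0.000611). Its second probe (A_52_P503796) gave 0.13 and was not called, so the lower Col5a3 level here is that of 1 probe.

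The calls of Col4a4, Col4a6, Col5a3, Col13a1, and Col27a1 held without any 1 mouse. That of Col2a1 was lost without HFD mouse 1 or 4 or HFD+1B mouse 1 or 4 (0.59 to 0.72), that of Col20a1 without HFD mouse 2 or 3 or HFD+1B mouse 4 (0.28 to 0.41), and that of Col10a1 without chow mouse 4, HFD mouse 2, 3, or 4, or HFD+1B mouse 1, 2, or 4 (0.32 to 0.47). Col24a1 lost its call in 10 fits, without chow mouse 1, 3, or 4, 1B mouse 2, HFD mouse 1, 3, or 4, or HFD+1B mouse 1, 2, or 4 (0.32 to 0.47). The count of higher genes was 3 without HFD+1B mouse 4 and 4 without HFD mouse 4.

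**Figure D3:**
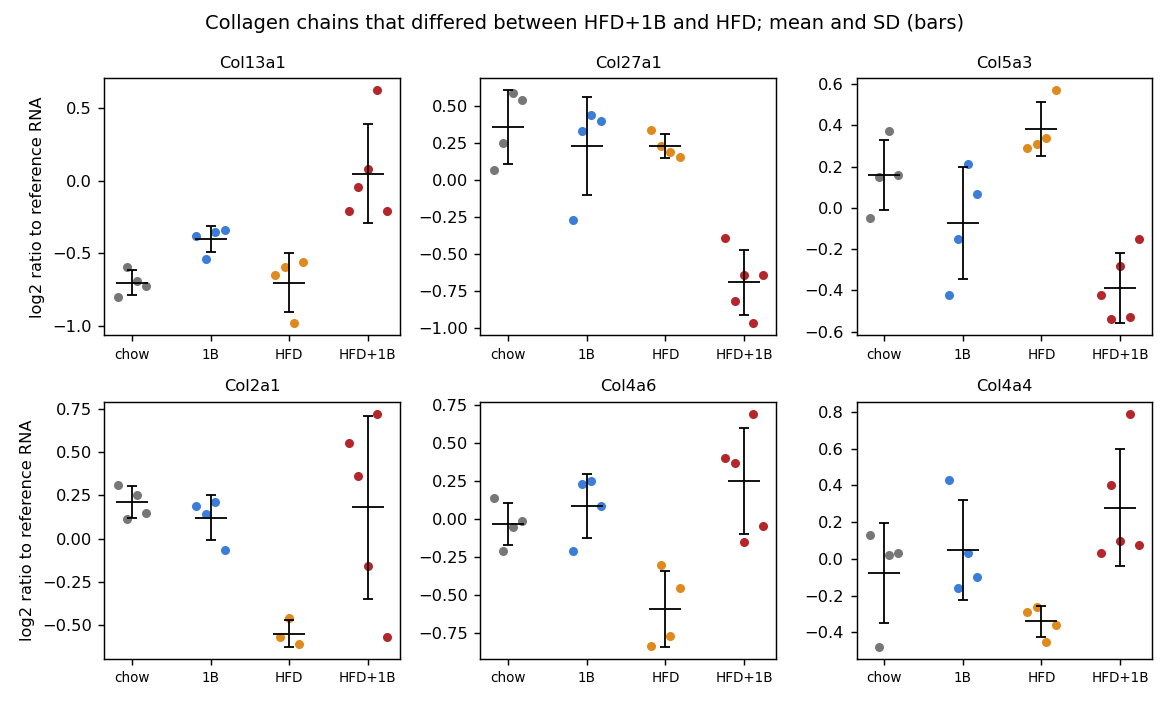
Log2 ratio of liver to reference RNA (y axis) for 6 chains called between HFD+1B and HFD, by group (x axis), where each point is a mouse and the bars are the mean and SD. At the brightest probe of each chain, Col13a1 is higher and Col27a1 and Col5a3 lower in HFD+1B than in HFD and chow. Col2a1 and Col4a6 are lowest in HFD at these probes, at means of -0.55 and -0.59.

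On chow, the binge alone was accompanied by no called collagen gene. At the brightest probe, 0 of 41 genes were higher (against 2.14% of all genes) and 0 lower (against 2.01%) in limma, and at an unadjusted p of 0.05 or less 2 were higher and 1 was lower. The Tukey test also gave 0 and 0, and with Benjamini-Hochberg adjustment it called 0.527% of all genes higher and 0.48% lower. Among all 72 probes, 1 was called, the second probe of Col13a1 (A_51_P240374), against 1.87% of all probes called higher. It was -0.34, -0.31, -0.67, and -0.56 in chow and -0.11, 0.066, 0.037, and 0.19 in 1B, a difference of 0.52 (SE 0.12, adjusted p of 0.0218), and its brightest probe gave 0.30 (adjusted p of 0.399). Col1a2 differed by -0.56 (SE 0.37, adjusted p of 0.592) and Col4a1 by 0.24 (SE 0.12, adjusted p of 0.397).

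Compared with 1B, HFD+1B had 9 genes higher (22.0%, against 6.26%) and 1 lower (2.44%, against 5.11%). The 9 were Col1a1 (2.24), Col1a2 (1.94), Col3a1 (1.18), Col4a1 (0.72), Col5a1 (1.04), Col6a1 (1.20), Col6a3 (1.1), Col13a1 (0.45), and Col22a1 (0.89) on the log2 scale, and the lower gene was Col27a1 (-0.92). Those of Col6a1, Col6a3, Col13a1, and Col22a1 were each lost in at least 2 of the fits without 1 mouse, that of Col13a1 in 14 (0.31 to 0.47). Col1a2 had an adjusted p of 0.00167 here, with log2 ratios of -2.02, -1.01, -1.04, and -1.68 in 1B. The count of higher genes was 5 without 1B mouse 3, and that of lower genes was 2 without 1B mouse 1.

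The interaction, the binge effect on HFD minus the binge effect on chow, was called for 1 collagen gene, Col27a1 (-0.78, SE 0.22, adjusted p of 0.0487). That is 2.44% of the 41 genes, against 1.73% of all genes with a negative interaction, and 0 were called positive (against 2.53%), with 7 positive and 3 negative at an unadjusted p of 0.05 or less. The Col27a1 call was lost in 14 of the 17 fits without 1 mouse, those without any 1 chow or HFD mouse, without 1B mouse 2, 3, or 4, or without HFD+1B mouse 2, 3, or 4 (-0.86 to -0.69). Of the 3 Col27a1 probes only the brightest was called, and their interactions ran from -0.78 to -0.014. The interaction of Col1a1 was -0.13 (SE 0.61) and that of Col1a2 was 1.06 (SE 0.51, adjusted p of 0.257).

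The classes were compared by the median over their genes in each mouse, relative to the chow mean. For fibrillar chains this median was between -0.092 and 0.10 in the chow mice and between -0.23 and -0.0040 in the 1B mice. It was between 0.33 and 0.70 in HFD mice, and between 0.16 and 0.59 when the binge was added. The HFD and HFD+1B mice all lay above the chow and 1B mice. For basement membrane chains the ranges over chow, 1B, HFD, and HFD+1B mice were -0.044 to 0.090, -0.035 to 0.24, -0.25 to 0.15, and 0.014 to 0.41, so that all 4 groups overlapped. For the other chains they were -0.063 to 0.040, -0.13 to 0.11, -0.13 to 0.15, and 0.037 to 0.26.

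The median over genes of the fitted log2 difference is a second summary. In HFD minus chow it was 0.22 for fibrillar, 0.041 for basement membrane, and 0.047 for other chains, beside 0.0044 for all genes tested. In HFD+1B minus chow it was 0.18, 0.20, and 0.11, beside 0.0022. A median hides unlike members, since the fibrillar differences in HFD ran from -0.75 (Col2a1) to 2.38 (Col1a1). The fibrillar median was positive under every scaling tried, but its size was not stable, at 0.58 in HFD and 0.77 in HFD+1B from the deposited ratios and 0.55 and 0.60 with probes above background on all 17 arrays. Within slides, the fibrillar median was higher in HFD than in chow on 3 of 3 slides that held both (0.33 to 0.79) and higher in HFD+1B than in chow on 4 of 4 (0.11 to 0.68), whereas HFD+1B minus HFD ran from -0.20 to 0.07 on 4 slides.

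**Figure D4:**
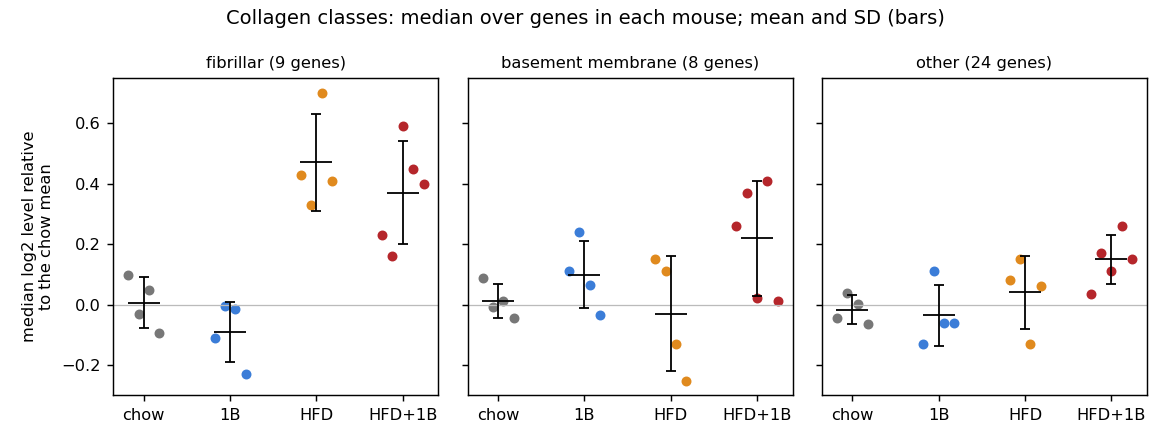
Median log2 level over the genes of each class relative to the chow mean (y axis) in every mouse (points), by group (x axis), with the mean and SD over mice as bars. The HFD mice (0.33 to 0.70) and HFD+1B mice (0.16 to 0.59) lie above all chow and 1B mice for fibrillar chains, whereas basement membrane and other chains overlap between chow and HFD.

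Probes of the same chain often did not give the same answer. Of the genes tested, 24 had at least 2 tested probes and 17 had 1. Over all 72 probes, 11 were higher (against 3.95% of all probes tested) and 4 lower (5.94%) in HFD minus chow, and 19 higher (7.87%) and 4 lower (6.89%) in HFD+1B minus chow. In HFD+1B minus HFD 11 were higher (9.83%) and 2 lower (8.06%), in HFD+1B minus 1B 15 were higher (5.29%) and 2 lower (4.68%), and for the interaction 0 were positive (2.40%) and 1 negative (1.62%). In 1B minus chow, with its single call, 0 were lower (1.76%). In HFD minus chow, 11 genes with 2 or more tested probes had at least 1 called, and for only 1 of them all probes were called in 1 direction, for 9 some were, and for 1 (Col2a1) probes were called in opposite directions. In HFD+1B minus chow, 11 such genes had a called probe, and for 5 all probes were called.

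The Col1a1 probe A_52_P658611, printed above, was -1.19, -1.38, -1.40, and -1.28 in chow and -0.55, -0.91, -1.52, and -1.39 in HFD, which overlap. Its difference in HFD was 0.22 (SE 0.49, not called), against 2.38 and 1.97 for A_51_P377094 and A_52_P525107. In HFD+1B it was -0.85, 0.96, -0.90, 2.29, and -0.15, all above chow and 1.58 higher (adjusted p of 0.0275). By this probe HFD+1B was higher than HFD by 1.36 (SE 0.46, adjusted p of 0.0498), although the values overlapped.

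For the printed Col3a1 probe, A_52_P684242, the differences were -0.045 in HFD minus chow (SE 0.27), 0.68 in HFD+1B minus chow (adjusted p of 0.0823), and 0.73 in HFD+1B minus HFD (adjusted p of 0.0552), against 1.08, 1.18, and 0.10 for the brightest probe. Of the 3 tested Col3a1 probes, only the brightest was called against chow in HFD and in HFD+1B. The lowest difference among them in HFD+1B minus chow was -0.0032. For Col5a1 the printed probe in the triple helix gave 0.018 in HFD minus chow (adjusted p of 0.96), against 0.92, and 0.38 in HFD+1B minus chow (adjusted p of 0.106), against 1.09. For Col6a3, A_52_P573586 gave 0.011 in HFD, against 1.26, and 0.40 in HFD+1B (adjusted p of 0.0673), against 0.97.
Col6a3, A_52_P573586: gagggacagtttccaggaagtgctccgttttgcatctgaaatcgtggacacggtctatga

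**Figure D5:**
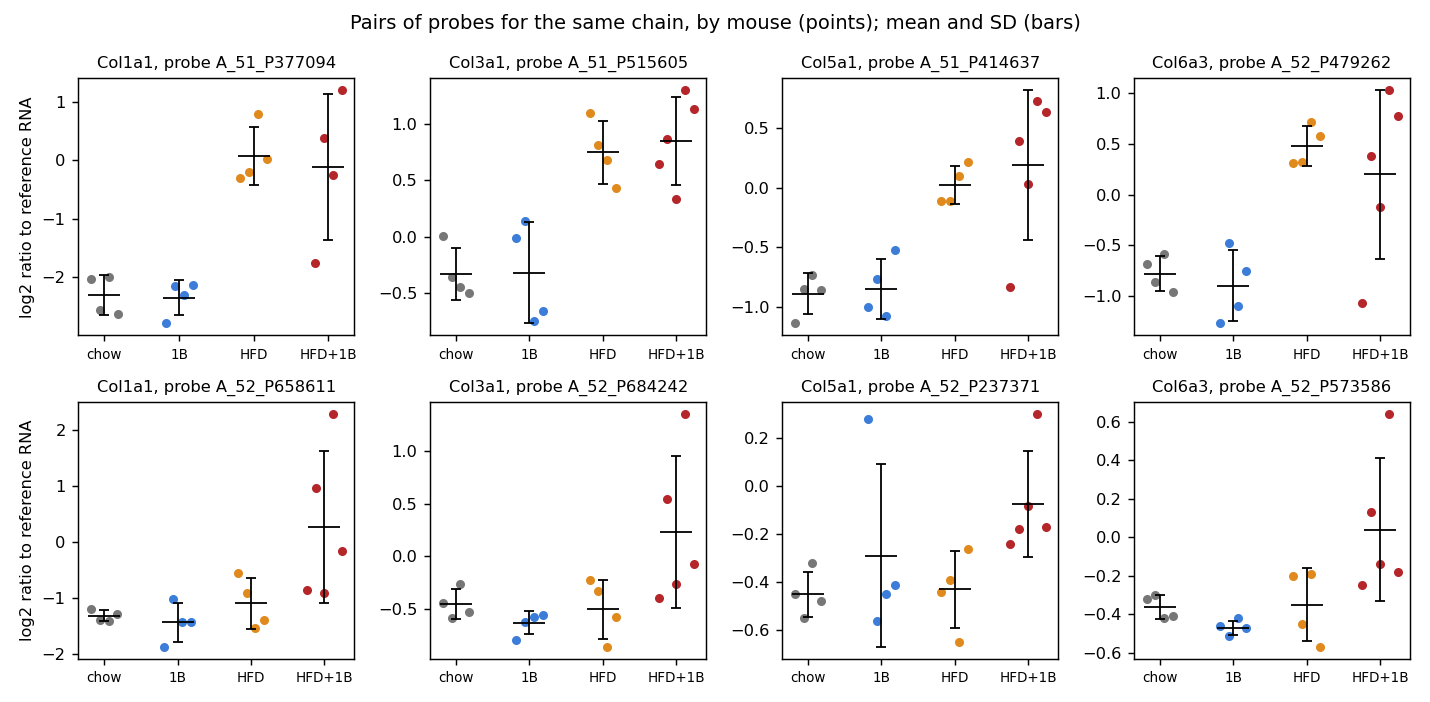
Log2 ratio of liver to reference RNA (y axis) by group (x axis) for pairs of probes of Col1a1, Col3a1, Col5a1, and Col6a3, the brightest probe above and another below; points are mice and bars are the mean and SD. In the upper row HFD lies above chow, whereas in the lower row HFD overlaps with chow (Col1a1 means of -1.09 and -1.31) and the highest values are in HFD+1B.

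For Col5a3 the order was turned. The printed probe in the triple helix, A_52_P503796, differed by -0.92 in HFD minus chow (SE 0.23, adjusted p of 0.0169) and by -0.79 in HFD+1B minus chow (adjusted p of 0.0189), with 0.13 in HFD+1B minus HFD, whereas the brightest probe gave 0.22, -0.54, and -0.76. The Col2a1 probes that share 40 bases gave -0.75 and, for A_51_P317141, 0.57 in HFD minus chow (SE 0.16, adjusted p of 0.0361), and -0.025 and 0.83 in HFD+1B minus chow (adjusted p of 0.00126 for the second). The log2 ratios of A_51_P317141 were -0.49, -0.83, -0.59, and -0.76 in chow and -0.36, -0.11, 0.26, and -0.18 in HFD. No direction is therefore given for Col2a1 as a gene.

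Other genes were called only at a dimmer probe. Col15a1, a chain at the basement membrane zone, was 0.69 higher in HFD+1B than in chow at A_51_P159792 (adjusted p of 0.0124) and 0.11 at the brightest probe. Col16a1 was 0.62 higher in HFD at A_51_P291062 (adjusted p of 0.0236) and -0.075 at the brightest, and Col6a4 differed by -0.50 in HFD at A_51_P408172 (adjusted p of 0.0118) and by -0.38 at the brightest (adjusted p of 0.255). Col25a1 differed between HFD+1B and HFD by 0.42 at A_51_P333929 (adjusted p of 0.0294) and by -0.42 at the brightest (adjusted p of 0.0659). What lay behind such differences between probes was not tested, and no transcript sequence was used here to place the probes along the transcripts.

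The remaining 17 tested genes had no called probe in any of the 6 comparisons, among them Col5a2 and Col12a1. Their 27 probes had log2 differences of -0.48 to 0.95 in HFD minus chow and of -0.44 to 0.77 in HFD+1B minus chow. Col12a1, a fibril-associated chain, was near background. Its brightest probe was well above background on 2 of 4 chow, 2 of 4 1B, 1 of 4 HFD, and 5 of 5 HFD+1B arrays, with differences of -0.13 in HFD and 0.024 in HFD+1B. The second Col12a1 probe passed background on 0 chow arrays and on 4 of the 5 HFD+1B arrays, and was not called.

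With a rule of at least 2-fold and an unadjusted p of 0.05 or less, 4 of the 41 genes were higher in HFD than in chow (against 0.589% of all genes), 5 in HFD+1B than in chow (1.85%), and 6 in HFD+1B than in 1B (1.22%). By this rule 1 was lower in HFD+1B than in chow (1.19%), and 0 were lower in HFD (1.35%) or, against 1B, in HFD+1B (0.687%). It gave 0 higher and 0 lower genes in HFD+1B minus HFD (1.53% and 0.563%), in 1B minus chow (0.641% and 0.424%), and in the interaction (1.61% and 0.594%).

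Collagen chains are hydroxylated, folded, trimmed, and cross-linked by a dedicated set of proteins. The counts of partner genes and markers that follow stand against all-gene shares of 4.60% higher and 6.28% lower in HFD minus chow, 9.01% and 7.28% in HFD+1B minus chow, and 10.8% and 8.43% in HFD+1B minus HFD. Of 29 tested genes of collagen biosynthesis and processing, 4 were higher and 1 was lower in HFD than in chow, 8 were higher and 1 was lower in HFD+1B than in chow, and 4 were higher in HFD+1B than in HFD. The cross-linking enzymes Loxl1 and Loxl2 were higher in HFD+1B than in chow by 1.33 (adjusted p of 0.00183) and 1.20 (adjusted p of 0.000109), and in HFD by 0.98 and 0.65. Sparc, a collagen-binding matrix protein, was higher by 1.43 in HFD+1B (adjusted p of 0.000614) and by 1.11 in HFD (adjusted p of 0.0118). Mia3, which takes part in loading procollagen for export, fell by 0.45 in HFD (adjusted p of 0.00278) and by 0.35 in HFD+1B (adjusted p of 0.00451), on the log2 scale. Between HFD+1B and HFD, Bmp1, which cleaves the procollagen C-terminal propeptide, rose by 0.62 (adjusted p of 0.0042), and Serpinh1, the collagen chaperone, by 0.43 (adjusted p of 0.0248).

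Of 8 tested proteoglycans that bind fibrils, 3 rose with HFD and 4 with HFD+1B, both against chow. Decorin (Dcn) was higher by 0.93 and 1.05 and lumican (Lum) by 1.00 and 1.05. Fibromodulin (Fmod) was higher in HFD+1B than in both chow (0.53, adjusted p of 0.0106) and HFD (0.60, adjusted p of 0.00484). Bgn was 0.77 higher in HFD+1B than in chow (adjusted p of 0.00617), and Prelp was 0.72 higher in HFD than in chow (adjusted p of 0.0206). Omd differed by -0.35 in HFD+1B minus HFD (adjusted p of 0.0373). Of 15 basement membrane partners, 4 were higher in HFD and 6 in HFD+1B than in chow. Nidogen 1 (Nid1), which links laminin to type IV collagen, was higher by 1.07 in HFD and 1.99 in HFD+1B (adjusted p of 3.7e-06), and by 0.92 between them (adjusted p of 0.00432). Lamb3, a laminin chain, was higher by 1.08 and 0.81, and perlecan (Hspg2) by 0.43 and 0.67.

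Among 9 collagen receptors, 1 was called, Ddr2 in HFD (0.39, adjusted p of 0.0269). Of 12 genes of collagen breakdown and its inhibitors, 1 was higher in HFD and 4 in HFD+1B than in chow. The protease inhibitor Timp1 was higher in HFD+1B than in chow by 0.88 (adjusted p of 0.00024) and than in HFD by 0.59 (adjusted p of 0.00671), and Timp2 was 0.62 higher than in HFD (adjusted p of 0.0413). Timp3, of the same family, was 0.58 higher in HFD+1B than in chow (adjusted p of 0.0109), and the gelatinase Mmp2 differed from chow by 0.37 in HFD (adjusted p of 0.0173) and 0.30 in HFD+1B (adjusted p of 0.0276).

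In whole liver, more cells of a type and more RNA per cell cannot be told apart. Markers of several cell types also differed between the groups. Of 10 stellate cell markers tested, 2 were higher in HFD and 5 in HFD+1B than in chow, and their mean log2 level relative to chow ran over the chow, 1B, HFD, and HFD+1B mice from -0.10 to 0.10, 0.10 to 0.19, 0.17 to 0.35, and 0.28 to 0.68. Lrat, which forms the retinyl esters that stellate cells store, was higher by 0.95 in HFD and 1.04 in HFD+1B, and Acta2, which marks their activated state, differed from chow by -0.26 in HFD (not called) and 1.15 in HFD+1B. Of 8 portal fibroblast markers, 1 was higher in HFD and 2 in HFD+1B, with means over the same 4 groups of -0.075 to 0.068, -0.16 to 0.030, 0.11 to 0.25, and 0.023 to 0.42. In 1B, 1 of the 10 stellate cell markers was called higher than in chow (Acta2, 0.66), against 2.14% of all genes. Macrophage markers (6 tested, 2 higher in HFD and 1 in HFD+1B than in chow) had mean levels over the same mice of -0.24 to 0.26, -0.14 to 0.11, 0.36 to 0.60, and 0.30 to 0.73. Among them Cd68, a lysosomal protein, was 1.28 higher in HFD and 1.37 in HFD+1B. Endothelial markers (7 tested, 2 higher in HFD, 2 higher and 2 lower in HFD+1B) had mean levels over the chow, 1B, HFD, and HFD+1B mice of -0.064 to 0.088, 0.14 to 0.29, 0.25 to 0.46, and 0.30 to 0.46. Lyve1, a hyaluronan receptor, was 1.37 higher in HFD and 3.19 in HFD+1B, and was the only endothelial marker called in 1B (1.96). The other called markers in HFD+1B minus chow went both ways, with Cdh5 at 0.78, Kdr at -1.05, and Clec4g at -0.81. Of 5 cholangiocyte markers, 1 was lower in HFD and 1 higher in HFD+1B, of 8 neutrophil markers 1 was higher in HFD and 2 were higher and 1 lower in HFD+1B, and of 5 hepatocyte markers 2 were lower in HFD and 1 was higher and 1 lower in HFD+1B. The part of all these cells in the collagen differences was not tested.

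The 250 bases before the start site were read from RefSeq (GRCm38.p6), where 35 of the 44 genes matched with 38 windows. Col1a2 and Col3a1 are shown because both were higher in HFD+1B than in chow and had a matched window. Capitals mark the CCAAT box, the GC box with the letters GGGCGG, and the TATA box with the letters TATAAA, on either strand, and none overlapped in these windows.
Col1a2, chr6:4505368-4505617, plus strand: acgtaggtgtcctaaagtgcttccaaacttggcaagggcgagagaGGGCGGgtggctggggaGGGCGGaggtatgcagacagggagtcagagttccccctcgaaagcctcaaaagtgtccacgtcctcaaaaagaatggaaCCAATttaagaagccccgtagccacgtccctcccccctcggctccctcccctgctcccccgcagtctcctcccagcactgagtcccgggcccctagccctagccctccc
Col3a1, chr1:45311288-45311537, plus strand: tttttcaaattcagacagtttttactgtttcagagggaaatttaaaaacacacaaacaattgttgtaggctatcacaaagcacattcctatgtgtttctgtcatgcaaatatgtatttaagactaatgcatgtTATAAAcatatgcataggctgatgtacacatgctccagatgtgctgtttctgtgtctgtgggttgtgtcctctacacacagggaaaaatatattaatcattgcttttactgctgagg
The Col1a2 window held the CCAAT box and the GC box, and the Col3a1 window the TATA box. The GC box letters were found in 57.9% of the collagen windows and in 32.7% of 32851 windows of all genes, the CCAAT box in 34.2% and 33.8%, and the TATA box letters in 13.2% and 12.4%. Letters that match a motif are a description of the window and say nothing of a factor bound there.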

How the data were processed

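Labeled liver cDNA of 17 mice was read on 2-color Agilent arrays, and the authors extracted the scanner values with Feature Extraction 11.5.1.1. The deposited scanner files hold, for 45018 spots, the intensity and local background of each channel without normalization. The deposited series table holds a log2 ratio per probe, which matched the log2 ratio of the scanner's processed signals (largest difference 2.74e-06) and was used as an alternative. Probe sequences were taken from it, and the array was annotated on an older build than the reference tables used here, so no gene coordinates are given besides those of promoter windows.

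Intensities were corrected with normexp at an offset of 50 and normalized by loess within arrays in limma 3.58.1 (R 4.3.3), with control spots at weight 0. The offset pulls log2 ratios of dim probes toward 0. Spots marked as outliers by the scanner software were left out (3424 values missing among tested probes), and spots of 1 probe were averaged. Probes were tested when well above background in Cy5 on at least 4 arrays, with a value in each group. The 4 group means were estimated over all arrays by lmFit and eBayes (13 residual degrees of freedom), in place of the analysis of variance with the Tukey test of the study's methods, which is an alternative. The number of arrays limits the precision, and p values cover the spread between mice of these groups. The arrays lay on 5 slides of several groups each and were scanned on 1 day. Alternatives were other background corrections and offsets (16), median centring, Cy5 alone, other filters, slide and replicate blocks, a 2-fold rule, other probe choices, and leaving out each mouse. The fit was tested on simulated data.

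Genes named are the 6 chains measured by PCR in the study, every chain with a called probe, and, from each list of partner genes, some of those called. The partner genes named are not always those with the smallest p in a comparison. The markers Alb, Lrat, Acta2, Cd68, Lyve1, Cdh5, Kdr, and Clec4g were named after their values were seen. The members and lists were chosen with earlier results of these data known.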

Additional observations from a re-analysis of the deposited data

Results flagged for a closer look

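In all, 118 sets of values were examined, each of a named chain or a class median in 1 treatment group. Of these, 4 had 1 mouse far from the rest (a gap larger than Dixon's critical value relative to the range), against 5.9 by chance at 1 in 20. The class medians are drawn from the same genes, so the sets are not independent. Mouse 4 of HFD had a Col5a3 log2 ratio of 0.57, with 0.29 to 0.34 in the other mice (gap of 0.831 of the range). Col6a1 was -0.61 in chow mouse 3 and -1.11 to -1.04 in the others (0.87). Col9a2 was -0.52 in HFD+1B mouse 2 and -0.15 to -0.092 in the others (0.87). Col27a1 was -0.27 in 1B mouse 1 and 0.33 to 0.44 in the others (0.853).

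At the brightest Col27a1 probe, the only 1 of 3 called, the binge effect on HFD minus that on chow was -0.78 on the log2 scale by the interaction in limma (adjusted p of 0.0487, and not called in 14 of 17 fits without 1 mouse). The effect was -0.14 on chow and -0.92 on HFD. All 5 HFD+1B mice were below all 4 HFD mice. Without 1B mouse 1 the interaction was -0.95, the largest over the fits that left out 1 mouse.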

How the results depend on the processing

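Of 42 calls of single genes, 16 were kept under all 26 settings in which single genes were refitted, among them those of Col1a1, Col3a1, and Col4a1 in HFD and in HFD+1B against chow, and of Col5a3, Col13a1, and Col27a1 in HFD+1B against chow and against HFD. Each refit read a gene at its brightest tested probe, so that these settings do not cover the differences between probes of 1 gene. Another probe was not called for Col1a1 (0.22) and Col3a1 (-0.045) in HFD. The same held for Col5a3 (0.13) and Col27a1 (-0.0055) in HFD+1B minus HFD. The adjusted Tukey test is not among these settings, and of the genes named here it kept in HFD only Col4a1 and in HFD+1B minus chow only Col3a1, Col4a1, and Col13a1 among the higher ones. The counts and class medians that moved are given here, and the cause was not tested. With an offset of 16, the fibrillar median in HFD+1B minus chow was 0.32. With median centring, 4 genes were lower in HFD (against 8.88% of all genes) and 12 higher in HFD+1B minus HFD (18.9%). The median of all collagens in HFD minus chow was then 0.0019. In HFD+1B minus HFD the medians were 0.30 (fibrillar), 0.36 (basement membrane), and 0.27 (all), while Col1a1 was 0.067 and Col5a2 -0.036. The interaction under this scaling gave 1 higher and 0 lower (against 5.66% and 0.413%). With the deposited ratios, the fibrillar median was 0.58 in HFD and 0.77 in HFD+1B minus chow, and that of other chains -0.056 in HFD. In HFD+1B minus HFD these ratios gave 0.28 (basement membrane), 0.20 (other), and 0.16 (all), with Col1a1 at 0.16. The interaction from these ratios gave 1 higher and 2 lower (against 2.61% and 1.31% of all genes). With Cy5 alone, 3 genes were higher and 1 lower in HFD (against 1.03% and 2.90% of all genes), and 4 were higher in HFD+1B minus chow (3.06%). Under this scaling 2 were higher in HFD+1B minus HFD (4.07%) and 3 in HFD+1B minus 1B (1.75%), with 0 negative interactions (0.119%). The medians were then 0.23 for basement membrane chains in HFD, 0.52 for fibrillar chains in HFD+1B minus chow, and, in HFD+1B minus HFD, -0.025 (other) and -0.0052 (all), with Col1a1 at 0.10, Col3a1 at -0.11, and Col5a2 at -0.030. Without a filter on dim probes, 0 genes were lower in HFD and 0 interactions negative. With probes above background on all 17 arrays, the fibrillar medians were 0.55 and 0.60. The 2-fold rule gave 0 lower in HFD, 5 higher and 1 lower in HFD+1B minus chow, 0 and 0 in HFD+1B minus HFD, 0 lower in HFD+1B minus 1B, and 0 negative interactions. Counting any probe gave 1 higher in 1B and 4 lower in HFD. The adjusted Tukey test gave 1 higher and 0 lower in HFD, 4 and 1 in HFD+1B minus chow, 2 higher in HFD+1B minus HFD, and 2 higher in HFD+1B minus 1B. The replicate numbers were not shown to pair the mice, since the same-number correlations ran from -0.13 to 0.48, with 16 of 24 over 0.1, and 9 of 17 mice correlated best with a mouse of their number. With the replicate block, 2 genes were lower in HFD+1B minus 1B, the interaction gave 2 higher and 2 lower, Col5a2 was -0.045 in HFD+1B minus HFD, and the HFD+1B minus chow calls of Col6a2 (0.70) and Col6a3 (0.83) were lost, but no other call of a single gene was. Only HFD+1B has a mouse 5.

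Leaving out each mouse gave 3 to 7 higher and 0 to 3 lower genes in HFD, 3 to 8 higher in HFD+1B minus HFD, 5 to 12 higher and 1 to 2 lower in HFD+1B minus 1B, and 0 to 1 positive and 0 to 1 negative interactions. The count of lower genes in HFD was 0 without any 1 chow mouse or HFD mouse 1, 3, or 4, and 1 without 1B mouse 2 or 4. In 1B minus chow, the median of other chains ran from -0.088 to 0.035 and that of all from -0.077 to 0.013. In HFD+1B minus HFD, Col5a2 ran from -0.054 to 0.094, and was -0.0025, -0.044, and -0.045 in the other fits with a negative sign. There Col1a1 ran from -0.62 to 0.37, with 0.058 without HFD mouse 3 and 0.37 without HFD+1B mouse 1, and Col3a1 from -0.010 to 0.23, with -0.0074 without HFD mouse 4 and -0.010 without HFD+1B mouse 4. Near background, as for Col12a1, the signal limits what could be seen.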
